A study of Oryza sativa with 2 samples.

Results

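The growth-regulating factor (GRF) genes were taken as every listed pair in which the gene symbol is GRF followed by a number and the small RNA is a form of miR396, leaving out 1 simple-repeat small RNA that carries a MIR396h name. This gave 148 of 25653 listed pairs, from 10 genes under 9 symbols out of 9660 listed genes. Of the 10 genes 8 had reads, namely GRF1, GRF3, GRF4, GRF5, GRF6, GRF8, GRF10 and GRF12. Both genes with the symbol GRF2 were listed without a read. The measurements come from degradome sequencing, a method that sequences uncapped RNA fragments from their 5′ end, where a cleaved transcript shows up as many reads beginning at the cut. Mesocotyls of the indica rice cultivar P25, for which the labels name no mutation or transgene, were sampled from seedlings kept in the dark for 5 days (the dark library) and from seedlings of the same age that then received 1 h of light (the light library). There was 1 library per condition, with 15422946 and 34051452 reads as inferred from the deposited scale, so no difference between them has a replicate check. The tissue label was not checked, because the table lists small RNA targets and no set of tissue markers.

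GRF proteins are plant transcription factors that keep cells dividing in young growing organs, together with coactivators called GRF-interacting factors. They bind DNA through a WRC domain and bind the coactivators through a QLQ domain. The microRNA miR396 pairs with GRF messenger RNA in the part that codes for the WRC domain and guides its cleavage, which limits organ growth. Roles named below are those of the rice genes with the same symbol, and the symbols are as deposited. RefSeq has grf3 in lower case as a synonym of GRF5, so these 2 names may be mixed up between sources. In a germinating grass the mesocotyl carries the young shoot up to the soil surface, growing long in darkness and ceasing to grow once light arrives.

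The GRF sites were paired with 8 listed small RNA names, which stand for 7 different sequences. The 4 named for rice miRNAs carry the finding on pairing and are shown 5′ to 3′ as deposited, with T for U and with the seed (bases 2 to 8) in capitals.
osa-miR396a-5p: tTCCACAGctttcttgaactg
osa-miR396c-5p: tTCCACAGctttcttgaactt
osa-miR396d_R-2: tCCACAGGctttcttgaac
osa-miR396e-5p: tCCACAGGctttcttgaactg
The small RNAs fall into 2 groups by seed. The seed TCCACAG was shared by 6 names, among them miR396a and miR396c, and the seed CCACAGG by the other 2, miR396d and miR396e. When the first base of miR396a is dropped, its next 7 bases match the start of miR396e. After these miR396e has a further G, and the remaining 13 bases are the same. The listed form of miR396d is the first 19 bases of miR396e.

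The further G went with the way the pairing was listed. The authors' alignment score counts mispairing and runs from 0 to 4 in the table, where 0 is the best. At GRF1, GRF2, GRF3, GRF4, GRF5 and GRF10 the score was 0 for miR396d and 1 for miR396e. At the same genes it was 3 for miR396a and 4 for miR396c. At GRF6 and GRF8 the gap was smaller. GRF6 scored 2 with miR396d, 3 with miR396e and 3 with miR396a, and GRF8 scored 2, 3.5 and 3.5. GRF12 was listed with the forms of the miR396e seed alone, at scores of 2 and 3. On the 18 transcript versions that had both, miR396a scored 2 above miR396e on 11 and the same on 7, which were the versions of GRF6 and GRF8.

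**Figure D1:**
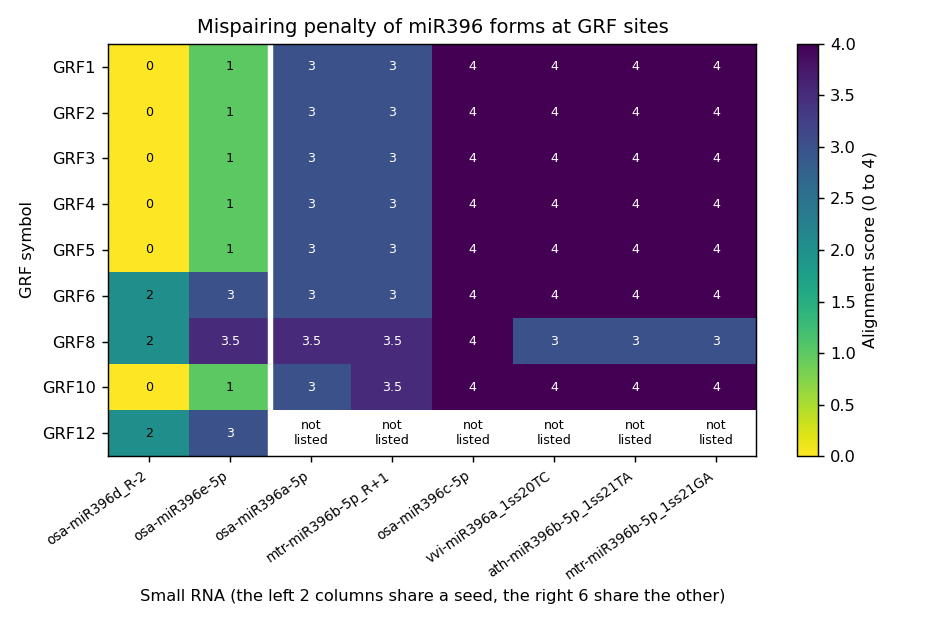
The alignment score (0 to 4, from the deposited table, lowest over transcript versions) is shown by colour and number for each GRF symbol (rows) and each miR396 form (columns), with white where a pair was not listed. The left pair of columns, which share the miR396e seed, holds every score of 0, 1 or 2, and the other columns lie between 3 and 4.

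The position of the cut was the same whichever form was paired. Each of the 18 GRF transcript versions with reads had 1 listed position, so 100% of the listed GRF reads of either library lay at it. In all 36 pairs of the miR396e seed with reads the paired stretch was as long as the small RNA, and the cut lay at base 10 of that stretch, counted from the small RNA's 5′ end. In all 96 pairs of the miR396a seed the paired stretch was 1 base longer than the small RNA, so that 1 transcript base was left unpaired (a bulge). The same cut lay at base 11 of this longer stretch. Bases were counted along the transcript stretch with the unpaired base included, so base 11 does not mean a different cut. In the deposited list as a whole 160 pairs with reads were cut at base 11, and 96 of them (60%) were these GRF pairs. GRF pairs made up 4.05% of all pairs with reads. Among all pairs outside the GRF genes 10.1% had a stretch 1 base longer than the small RNA, against 73.0% of the GRF pairs. None of the 76 AP2 pairs with miR172, the 205 SPL pairs with miR156 or the 44 ARF pairs with miR160 had one. A listing may require a cut near base 10, so these counts describe how the pairs were listed and are no test of cleavage.

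GRF3 and GRF5, with 1 transcript version each, were cut at position 517 of ZS04t0732800-01 and at position 410 of ZS06t0023600-01. For GRF10 the cut was at position 830 of ZS02t0564200-01, and for GRF4 at position 642 of ZS02t0589700-01. GRF1 was cut at position 596 of ZS02t0664600-02, GRF6 at position 570 of ZS03t0661200-01, GRF8 at position 880 of ZS11t0488900-01 and GRF12 at position 872 of ZS04t0679700-01. Other versions of these genes carried the same raw reads, and the authors' normalized reads divided each raw count by exactly the number of versions of that gene. The reads of a GRF gene therefore matched no other listed GRF gene, and versions were joined so that each read was counted once.

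Fragments of GRF10 were the most abundant of the family in the dark library and those of GRF5 in the light library. Levels are given in TPB, the authors' reads per library total times a constant, in which 1 read is worth 64.8 (dark) and 29.4 (light). Intervals are exact 95% intervals for counting error and nothing else, because reads amplified by PCR and not tagged by molecule can be copies of each other. GRF5 fragments stood at 1426 TPB in the dark library (894 to 2160, 22 reads) and reached 3524 in the light library (2922 to 4214, 120 reads). Its intervals in the 2 libraries did not overlap, and it ranked 34 of 413 genes with dark reads and 21 of 665 with light reads. GRF10, which in rice represses a KNOX homeobox gene together with GRF3, stood at 2723 TPB (1963 to 3681, 42 reads) and 2437 (1941 to 3022, 83 reads). GRF3 stood at 1686 TPB (1101 to 2470, 26 reads) and, with the same 83 reads as GRF10, at 2437 in the light library. Both genes had overlapping intervals in the 2 libraries. GRF8, which in rice acts in resistance to the brown planthopper, stood at 1686 TPB (1101 to 2470, 26 reads) and 1233 (889 to 1667, 42 reads), again with overlap.

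The remaining members had fewer reads. GRF1, first described in rice as a gene that gibberellin induces in growing stems, stood at 584 TPB (267 to 1108, 9 reads) and 558 (336 to 871, 19 reads). GRF4, known in rice as the grain size gene GS2, stood at 195 TPB (40.1 to 568, 3 reads) in the dark library and 675 (428 to 1013, 23 reads) in the light library. GRF6, which acts in rice inflorescence development, had no dark read, with an interval up to 239 TPB and a floor of 3 reads at 195 TPB. In the light library it stood at 470 TPB (269 to 763, 16 reads). GRF12 had 2 dark reads and 1 light read, at 130 and 29.4 TPB. The light interval of GRF6 lay above the dark floor, whereas the intervals of GRF1, GRF4 and GRF12 overlapped between the libraries.

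Neighbours in the order of levels mostly did not differ beyond counting error. In the dark library the order was GRF10, GRF3 and GRF8 with equal reads, GRF5, GRF1, GRF4, GRF12 and GRF6. Of its 7 neighbouring steps only that from GRF5 to GRF1 had an interval for the share of reads that excluded equality, at 71.0% (52.0 to 85.8). In the light library the order was GRF5, GRF3 and GRF10 with equal reads, GRF8, GRF4, GRF1, GRF6 and GRF12. There 4 of the 7 steps excluded equality, among them GRF5 over GRF10 at 59.1% (52.0 to 65.9) and GRF3 over GRF8 at 66.4% (57.4 to 74.6). The light library holds 2.21 times the reads, so smaller steps are resolved in it.

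**Figure D2:**
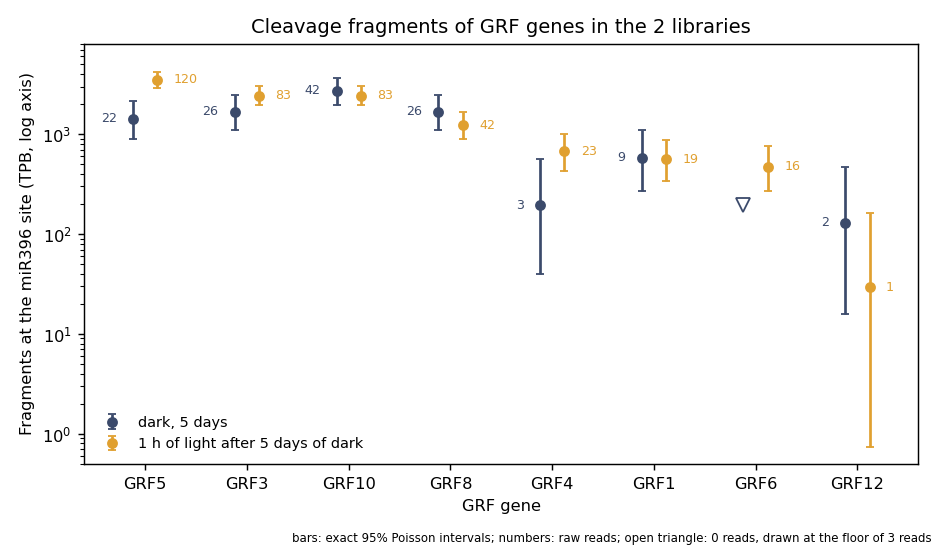
Fragments at the miR396 site (TPB, log axis) are plotted for the 8 GRF genes with reads, in the dark library (blue) and the light library (yellow), with exact 95% Poisson intervals and raw read numbers. GRF5 stands at 1426 and 3524 TPB with intervals apart, GRF6 has no dark read (open triangle at the floor of 195 TPB), and GRF12 rests on 2 reads and 1.

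Fragments of GRF5, GRF4 and GRF6 were more abundant in the light library, and no GRF gene was called lower. A gene was called when light over dark was at least 2-fold, or at most its inverse, and the exact interval of the read counts excluded 1, and a gene with no read in 1 library counted as past the fold. The ratio was 2.47 for GRF5 (1.56 to 4.09) and 3.47 for GRF4 (1.05 to 18.1). For GRF6, set against the floor of the dark library, it was 2.42, and its interval began at 1.75. The call rate over all 823 genes with reads was 3.28% for higher and 2.31% for lower, and only 85 of those genes had at least 20 reads in all. Of the 85 genes 20% were called higher and 5.88% lower. Of the 6 GRF genes with that many reads 2 were called higher and none lower, so the family's count is not far from this background.

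The other 5 members with reads were not called. GRF3 stood at 1.45 (0.921 to 2.34), GRF1 at 0.956 (0.412 to 2.40), GRF10 at 0.895 (0.610 to 1.33) and GRF8 at 0.732 (0.438 to 1.24). GRF12, at 0.226 (0.00384 to 4.35), could not be told from no change or from a change in either direction at this depth. The median of the 7 genes with reads in both libraries was 0.956, against 0.883 over the 255 genes of the table with reads in both. No level of the whole GRF transcripts or of miR396 was used here, and in bulk tissue fewer cells of a type and less RNA per cell cannot be told apart.

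The calls rest on how the libraries are set against each other. When the sum over the 692 sites with reads in both libraries was used in place of the library totals, every ratio fell by a factor of 1.36, and GRF5 at 1.82 (1.15 to 3.02) and GRF4 at 2.56 (0.774 to 13.3) were no longer called. GRF6 was called under that scaling through its lack of a dark read, with an interval from 1.29. Against the floor it stood at 1.78-fold, short of 2-fold, so that no GRF gene would be called if the ratio against the floor had to reach 2-fold. Under that scaling the intervals of GRF8, at 0.540 (0.323 to 0.917), and of GRF10, at 0.660 (0.450 to 0.981), lay below 1. The median ratio over the same sites raised every ratio by a small factor and left the calls of GRF4, GRF5 and GRF6 in place, at 3.93, 2.80 and 2.74-fold, the last against the floor.

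**Figure D3:**
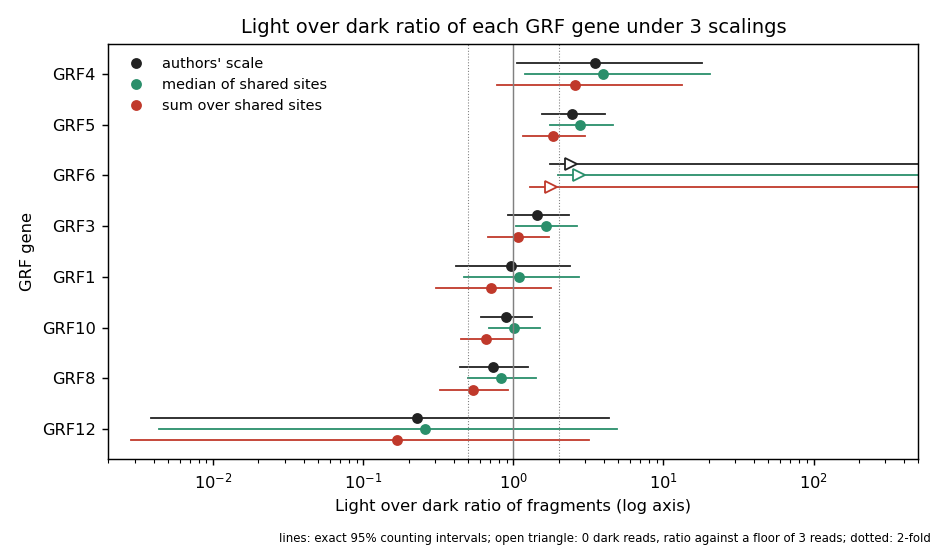
The light over dark ratio of each GRF gene (log axis) is plotted with its exact 95% counting interval under the authors' scale (black), the median of shared sites (green) and the sum over shared sites (red). GRF5 stays above 1 under all 3 scalings, at 2.47, 2.80 and 1.82, GRF6 is drawn against a floor of 3 reads, and the scalings move all genes alike.

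Differences between members do not depend on that choice, because a scaling multiplies every gene by the same number. Of 28 pairs of GRF genes 9 had an exact conditional interval of the ratio of their light over dark ratios that excluded 1. With intervals widened for the number of pairs, to a level of 99.8%, 2 pairs were left. The light over dark ratio of GRF5 was 3.38 times that of GRF8 (95% interval 1.64 to 6.95, widened 1.11 to 10.5) and 2.76 times that of GRF10 (1.48 to 5.22, widened 1.06 to 7.58). The further 7 pairs set GRF6 against GRF1, GRF3, GRF8, GRF10 and GRF12, and GRF4 against GRF8 and GRF10. They rested on 0 dark reads for GRF6 and on 3 for GRF4. GRF5 and GRF3 were not separated, with a ratio of 1.71 (0.864 to 3.39). These intervals describe the libraries and not the conditions.

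The make-up of the family's fragments differed between the libraries in the same way. GRF10 gave 32.3% of the 130 GRF reads of the dark library (24.4 to 41.1) and 21.4% of the 387 of the light library (17.5 to 25.9). GRF5 gave 16.9% (10.9 to 24.5) and 31.0% (26.4 to 35.9), and these intervals did not overlap. GRF8 gave 20% (13.5 to 27.9) and 10.9% (7.93 to 14.4), with a narrow overlap. GRF3 gave 20% and 21.4%. The first-ranked member was thus GRF10 in the dark library and GRF5 in the light library, although GRF10 and GRF3 were not separated in the dark library.

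Summed over the GRF genes, fragments came to 8429 TPB in the library without light and 11365 in that with it, 1.35 times as many (1.10 to 1.66). Without GRF5 the ratio was 1.12 (0.892 to 1.41), an interval that includes 1, and without any other single gene it lay between 1.29 and 1.56 with intervals above 1. With the sum scaling the family ratio was 0.994 (0.813 to 1.22), and 0.826 (0.658 to 1.04) without GRF5. With the median scaling it was 1.53 (1.25 to 1.88), and 1.27 (1.01 to 1.60) without GRF5, an interval above 1. Whether the interval without GRF5 includes 1 thus depends on the scaling. As a share of all fragments at listed sites the family held 2.37% without light and 2.32% with it.

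All 8 GRF genes with reads reached category 0, which is commonly given to a cut that outnumbers all other positions of its transcript, in at least 1 library and version. Among all genes 63 of 823 with reads (7.65%) did so. Category 0 was not particular to the GRF genes. It was also reached by 5 of 5 ARF genes with reads under miR160, 6 of 8 SPL genes under miR156 and 3 of 5 AP2 genes under miR172. GRF1, GRF3, GRF5, GRF8 and GRF10 were in category 0 in both libraries. GRF4 was in category 2 in the dark library, on 3 reads, and in category 0 in the light library, on 23. GRF12 went the other way, with category 0 on 2 dark reads and category 4 on 1 light read, and a category on so few reads has little weight. In GRF1 the category depended on the version, being 0 in ZS02t0664600-02 and 2 in ZS02t0664600-01 and ZS02t0664600-03 in both libraries, although the 3 versions carried the same 9 and 19 reads.

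The authors' deposited table also rates every pair by a p-value, separately for dark and light, which varied with the category and the paired form. Among category 0 pairs of the miR396e seed, the deposited p-values were under 0.05 in 22 of 22 in the dark library and 28 of 28 in the light library. Among those of the miR396a seed they were under 0.05 in 35 of 54 and 50 of 84. Pairs repeat the reads of a gene over its versions and forms. Those under 0.05 came from 6 (dark) and 7 (light) genes for the miR396e seed, and from 5 and 7 for the miR396a seed. The lowest deposited p-values belonged to the miR396a seed, at 0.00923 (dark) and 0.0106 (light), against 0.0115 and 0.0132 for the miR396e seed. No pair of miR396c fell under 0.05, with a lowest deposited p-value of 0.0612 (dark) and 0.0700 (light). All forms were paired to the same reads, so the p-values do not tell which form made the cut.

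Some GRF sites with the best pairing had no reads. Both GRF2 genes, ZS06g0118800 and ZS06g0451200, scored 0 with miR396d and had no read in either library. The floor of 3 reads lies at 195 TPB without light and 88.1 with light. RefSeq lists 8 of the 9 GRF symbols for rice as gene names or synonyms, and GRF2 only in lower case as a synonym of GRF4, so the name of these genes is uncertain. The 7 genes with a best score of 0 had between 0 and 142 reads over both libraries, and the 3 with a best score of 2, GRF6, GRF8 and GRF12, had between 3 and 68. Of the GRF pairs 89.2% had reads. The same 8 small RNA names had reads in 66 of 226 pairs outside the GRF genes (29.2%), and the whole table in 12.7% of pairs. A high share was not particular to the GRF genes. Reads were listed for 64 of 76 AP2 pairs with miR172, 191 of 205 SPL pairs with miR156 and 42 of 44 ARF pairs with miR160. Pairs of 1 gene share their reads, so these shares have no error of their own.

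Few fragments were listed at miR396 sites outside the GRF genes, and whether miR396 made them was not tested. The miR396 forms, the simple-repeat small RNA left out, were paired with 75 further genes, of which 12 had reads, none with more than 17 in all, and the lowest score was 3. The unnamed gene ZS06g0090900 was the only one of the 12 to reach category 0 and the only one called. It alone had a deposited p-value under 0.05, of 0.0188 in the light library, and it was singled out after its values were seen. It was cut at position 694 of ZS06t0090900-01, with 1 dark read at 64.8 TPB and 16 light reads at 470 TPB, a ratio of 7.25 (1.13 to 304). With the sum scaling it was not called, at 5.34 with an interval from 0.830. It paired with 5 names of the miR396a seed at a best score of 3, with no bulge and a cut at base 10. At the GRF sites the names of that seed had a bulge, and the cut lay at base 11 of a stretch that includes the unpaired base. The simple-repeat small RNA was paired with 3163 further genes, and 4 of them had at least 20 reads, namely HOX16 (8 and 25), RPP25L (8 and 12), RPL37A (12 and 20) and MT4C (13 and 13). None of those 4 was called or reached category 0. Genes with the symbol GIF, the coactivators of GRF proteins, were listed in 4 pairs without reads. GRF genes were listed with small RNAs outside the rule in 18 pairs without reads, 6 of them with the simple-repeat small RNA.

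Set beside 3 other families of transcription factors under 1 miRNA each, the GRF genes had the lowest summed level in the light library, and in the dark library they lay above AP2 but below SPL and ARF. The GRF sum of 11365 TPB in the light library compares with 15858 for 5 AP2 genes with reads under miR172, 26108 for 8 SPL genes under miR156 and 184133 for 5 ARF genes under miR160. In the dark library the sums were 8429, 6160, 26713 and 139338 TPB. The sums went from dark to light by factors of 1.35 for GRF, 2.57 for AP2, 0.977 for SPL and 1.32 for ARF. On the authors' scale 3 of 8 GRF genes and 2 of 5 AP2 genes were called higher. For SPL and ARF the numbers were 0 of 8 and 1 of 5, and 1 SPL gene was called lower. Over all 823 genes with reads 3.28% were called higher, and 20% of the 85 with at least 20 reads. With the sum scaling the GRF count was 1, and no such count is given for the other families. An SPL gene at 3.85, on 2 dark and 17 light reads, was not called, as its interval began at 0.914. The same held for an AP2 gene at 4.08, on 2 and 18 reads, with an interval from 0.976. With so few genes per family no difference between families was tested. The best score was 0 for the median GRF gene and 1 for the median gene of each other family. Every GRF score of 0 came from the listed 19-base form of miR396d. The 21-base miR396e had a median score of 1 over its GRF pairs, so the scores do not show better pairing of the GRF genes.

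**Figure D4:**
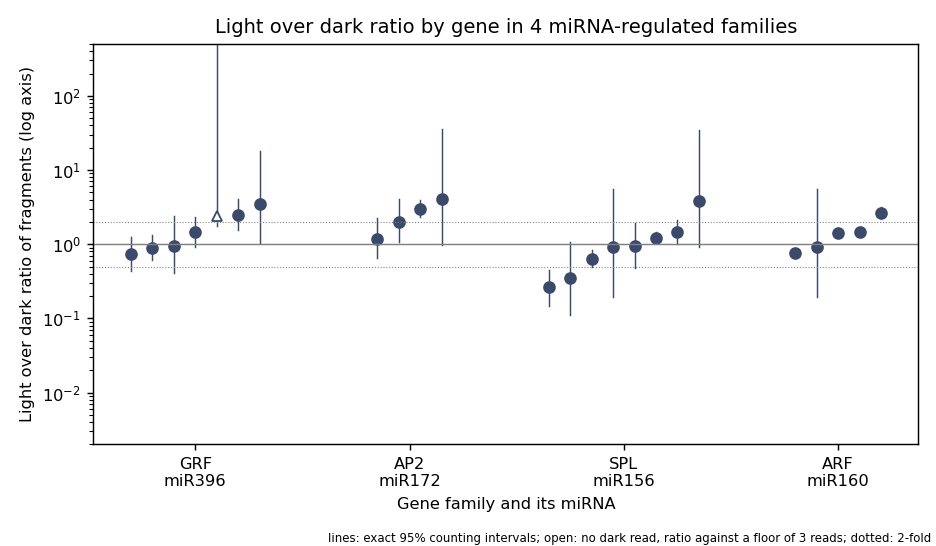
The light over dark ratio (log axis) is plotted with exact 95% counting intervals for GRF, AP2, SPL and ARF genes with at least 3 reads in a library. This leaves out GRF12, with 2 dark reads and 1 light read, and 1 AP2 gene with 1 dark read and no light read. The GRF genes drawn run from 0.732 to 3.47, with GRF6 drawn against the floor at 2.42, a range that overlaps those of the other families.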

How the data were processed

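Per the labels' protocols, total RNA of mesocotyls was sequenced on a HiSeq instrument as 2 degradome libraries. For the aligner, target finder, build and annotation no statement is given in the sources used here. Raw read counts, deposited as whole numbers per cleavage position, were used with the authors' normalized reads and TPB, both a signal. TPB equals normalized reads times 1 constant per library in every row, which gave the library totals. Some headers name a dark library of 1 h, and they were read as the 5-day dark library because of that constant. The alignment score, category and p-value of each pair were used as the authors deposited them. A further 20 per-sample columns in 2 smaller sheets were not used.

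Reads were summed per gene over transcript versions. Ratios are light over dark TPB with exact Clopper-Pearson intervals of the reads, formed for all genes with scipy 1.17.1, and the calling rule was tested on simulated data. Levels have exact Poisson intervals, and ratios between genes exact conditional intervals. With 1 library per condition no test between conditions was made. All GRF genes are named, and other miR396 targets with at least 20 reads, and ZS06g0090900 was named after its values were seen. The members and lists were chosen with earlier results of these data known. Ratios between genes with their intervals, the family sum with its scalings and without GRF5, and calls against the floor were added after the data were seen. Target site sequences were not analysed here, and RefSeq assembly names served only for symbols.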

Additional observations from a re-analysis of the deposited data

How the results depend on the processing

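Of 58 alternative values, 53 stayed close to those reported, within the counting interval of a ratio or within 1.5 times a count. The other 5 were the number of GRF genes called higher, which was 3 as reported, 1 (GRF6) with the sum scaling, 0 with the sum scaling and a 2-fold rule against the floor, and 1 (GRF4) with a 3-fold rule against the floor, the family ratio, which was 0.994 with the sum scaling against 1.35, and the pairs of GRF genes told apart, which were 2 with widened intervals against 9. Thresholds of 1.5-fold and 3-fold and a 2-fold rule against the floor kept the count called higher within 1.5 times 3. No GRF gene was called lower under any alternative tried. The 1.5-fold threshold was not tried with the sum scaling, where GRF8, at 0.540, and GRF10, at 0.660, had intervals below 1. Raw reads and the position with most reads could not move any value, because each version had 1 position and versions of a gene shared their reads. Their values are counted among the 53, so that number overstates how far the results were put to a test. With the sum scaling the ratios of GRF4 and GRF5 count as close, although these genes were no longer called. No paired analysis was possible because each condition has 1 library, and no replicate could be left out for the same reason. The dark library, at 15422946 reads, limits GRF4, GRF6 and GRF12, which had 3 dark reads or fewer.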
